A study of Danio rerio with 18 samples.

Results

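Bud embryos, at 10 hours post-fertilization (hpf) and the end of gastrulation, were set against shield embryos, at 6 hpf and the start of gastrulation, to follow the transfer RNA (tRNA) pool of zebrafish through gastrulation. The comparison used 2 bud and 2 shield libraries, which were 4 of the 18 samples of the series. Both stages were wild-type TLAB embryos, a cross of the TL and AB laboratory strains, with no treatment, and each library came from a pool of whole embryos, with the replicate pools collected on different days. A difference can therefore come from any cell type of the embryo, and fewer cells of a type cannot be told apart from less tRNA per cell. The 8 further abundance libraries, from unfertilized eggs and from embryos at the 256-cell (2.5 hpf), the 1000-cell (3 hpf) and the sphere stage (4 hpf), served the shared fit and the view of earlier levels, and the 6 charging libraries hold no shield sample and were not used. All 2578 nuclear entries of the count table were followed, and the 22 mitochondrial entries were set aside. Of the nuclear entries 2505 were single tRNA transcripts and 73 were groups of transcripts that reads could not tell apart. Counts were also summed into 47 anticodon families and 22 amino acid classes, with initiator methionine and selenocysteine kept as classes of their own.

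A tRNA carries an amino acid at one end and reads a codon of the messenger RNA with its anticodon at the other. tRNAs that carry the same amino acid with different anticodons are isoacceptors, and transcripts with the same anticodon but different bodies are isodecoders. All are made by RNA polymerase III, often from many gene copies of one tRNA, and in early fish embryos an inherited maternal pool is gradually joined by tRNA made from the embryo's own genome. In the names used here, tRNA-Tyr-GUA-1 is the tyrosine tRNA with anticodon GUA and isodecoder number 1 in the genomic tRNA database. Sequence and genome position of the transcripts were not used here.

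The bud libraries held 3417973 and 4643730 counts and the shield libraries 5757862 and 5617186, within the range of 977425 to 10121680 over the abundance libraries. Mitochondrial tRNAs took 8.31% and 8.35% of the counts at bud, against 11.9% and 11.8% at shield, and levels below are therefore given as percent of nuclear counts. The 2 libraries of a stage differed by more than counting error, with a chi-square per degree of freedom of 63.4 at bud and 156 at shield. A single transcript was called detected at 0.005% of nuclear counts in at least 1 of the 12 abundance libraries, which left 607, of which 2 passed only through a bud library, 19 only through a shield library and 78 through neither stage. Together they took 72.1% and 73.6% of nuclear counts at bud and 73.3% and 71.1% at shield, and the unresolved groups took the remainder apart from transcripts below detection. All levels are relative to the pool sequenced, so the amount of tRNA per embryo was not measured.

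At the level of the amino acid, selenocysteine tRNA was the class that rose. tRNA-SeC, which carries serine that is then converted to selenocysteine and reads certain UGA codons, held 0.0433% and 0.0385% of nuclear counts at bud, against 0.0154% and 0.0147% at shield. Both bud libraries lay above both shield libraries, and the log2 change was 1.44 (SE 0.24, DESeq2 Wald test, adjusted p = 7.61e-08). It was 1 of 22 classes called higher, or 4.55%, while DESeq2 called 0 lower, with 1 lower at an unadjusted p under 0.05 and 0 lower by edgeR. With unresolved groups left out, selenocysteine was no longer called (log2 1.46, SE 0.58, DESeq2 adjusted p = 0.075) and lysine was called in its place. The selenocysteine class is 1 transcript outside any group, so its counts were the same and only the fit differed. Lysine then lacked a group of 9 transcripts that held 94.0% and 95.3% of tRNA-Lys-UUU at bud, against 90.9% and 95.9% at shield. With all groups kept, lysine held 11.0% and 9.33% at bud, against 7.91% and 11.1% at shield (log2 0.09, DESeq2 adjusted p = 0.91).

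The remaining classes had log2 changes between -0.46 and 0.29. The lowest was leucine, which held 3.63% and 3.82% at bud and 5.45% and 4.75% at shield. Its bud libraries lay below its shield libraries, yet the log2 change of -0.46 (SE 0.18) did not pass (unadjusted p = 0.0105, DESeq2 adjusted p = 0.115). A fit on the 4 libraries alone called leucine lower, at -0.48 with a DESeq2 adjusted p of 1.27e-07, and proline lower at -0.20. That fit leaves out the spread of the earlier libraries, in which leucine ran from 2.97% to 5.48%. All bud and shield values of leucine lay within that range. Initiator methionine, which starts translation, and elongator methionine, which reads internal AUG codons, had log2 changes of -0.03 and 0.20, and neither passed.

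Among the 47 anticodon families 5 were higher at bud, or 10.6%, by DESeq2 at an adjusted p of at most 0.05. DESeq2 called 0 lower, with 2 lower at an unadjusted p under 0.05 and 0 lower by edgeR. The largest change was that of tRNA-SeC-UCA (log2 1.51, SE 0.38, DESeq2 adjusted p = 7.47e-04). Its family call was lost without either shield library, with log2 changes of 1.53 and 1.48. It holds the same counts as the selenocysteine class and differs from it in log2 change because size factors were estimated at each level.

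tRNA-Ser-CGA, which reads UCG, held 0.282% and 0.242% at bud, against 0.167% and 0.158% at shield (log2 0.76, SE 0.16, DESeq2 adjusted p = 8.25e-05). tRNA-Thr-UGU, which reads ACA, held 1.19% and 1.09% at bud, against 0.682% and 0.758% at shield (log2 0.73, SE 0.12, DESeq2 adjusted p = 2.04e-07). These were the families that stayed called without any 1 of the 4 libraries, which was 2 of the 5.

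tRNA-Arg-UCG, which reads CGA, took 1.39% and 1.34% at bud and 0.978% and 1.01% at shield, a log2 change of 0.52 (SE 0.12). tRNA-Lys-CUU, which reads AAG, took 2.63% and 2.84% at bud and 2.02% and 2.07% at shield, a log2 change of 0.49 (SE 0.12). In both families the 2 stages did not overlap. Their DESeq2 adjusted p values of 1.04e-04 and 7.47e-04 became 0.051 and 0.079 without the first shield library.

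**Figure D1:**
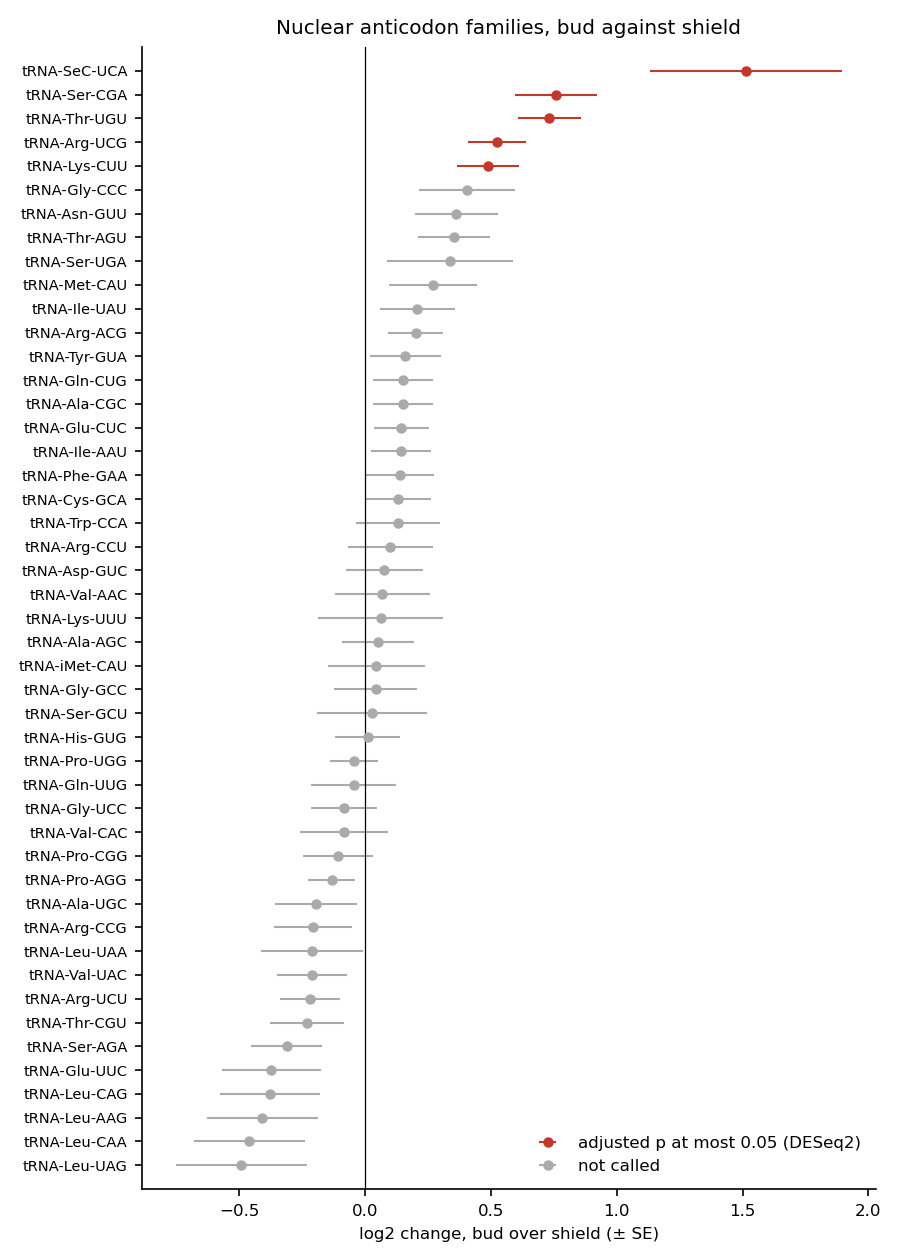
Log2 change of each of the 47 nuclear anticodon families, bud over shield, with its standard error from DESeq2 over 12 libraries. The 5 families called higher lie between 0.49 and 1.51, and the others lie between -0.49 and 0.41.

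The families that were not called spanned log2 changes of -0.49 to 0.41, with a median over all 47 of 0.06. The 5 leucine families, whose tRNAs carry a long variable arm, were all at negative values, from -0.49 for tRNA-Leu-UAG to -0.21 for tRNA-Leu-UAA, and none passed (1 at an unadjusted p under 0.05, and 0 by edgeR). With the 4 libraries alone, tRNA-Leu-AAG, tRNA-Leu-CAA, tRNA-Leu-CAG and tRNA-Leu-UAG were called lower, with DESeq2 adjusted p values of 0.0096, 0.0055, 0.0035 and 0.014. Of all 10 families with a long variable arm (leucine, serine and selenocysteine) 2 were higher, and of the 5 families charged by seryl-tRNA synthetase (serine and selenocysteine) the same 2, beside the 5 of all 47, or 10.6%. Grouped by the wobble base, which pairs with the last base of the codon, 3 of 15 families with uridine and 2 of 16 with cytidine were higher, against 0 of 8 with adenosine, which is edited to inosine, and 0 of 8 with guanosine. At an unadjusted p under 0.05 there were 2 families with adenosine and 1 with guanosine, and edgeR also called 0 in both groups. The zeros did not hold in every fit. With the 4 libraries alone, tRNA-Arg-ACG, tRNA-Thr-AGU and tRNA-Asn-GUU were called higher (DESeq2 adjusted p = 0.0096, 0.0095 and 0.0034) and tRNA-Leu-AAG, tRNA-Pro-AGG and tRNA-Ser-AGA lower, and with the replicate number as a block tRNA-Thr-AGU was called higher (adjusted p = 0.0013). With unresolved groups left out, tRNA-Ser-AGA was called lower (DESeq2 adjusted p = 0.039). Those outside leucine are named after their values were seen. The group medians were -0.05 for uridine, 0.11 for cytidine, 0.06 for adenosine and 0.10 for guanosine. The groups are small, the share over all 47 families was 10.6%, and no difference between groups was tested.

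Within an amino acid, the choice of anticodon shifted for 8 of 37 families, each measured as its percent of the counts of its own amino acid and so free of the scaling between libraries. There were 4 families that gained, or 10.8%, and 4 that lost, or 10.8%.

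Threonine gave a gain and a loss. tRNA-Thr-UGU made up 24.6% and 21.1% of threonine tRNA at bud, against 16.4% and 16.0% at shield (log2 0.49, SE 0.11, DESeq2 adjusted p = 1.96e-04). tRNA-Thr-CGU, which reads ACG, made up 25.3% and 28.3% at bud, against 36.5% and 37.9% at shield (log2 -0.47, SE 0.07, adjusted p = 1.54e-09). The stages did not overlap in either family, and both calls held without any 1 library.

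Serine showed a similar exchange. tRNA-Ser-CGA made up 6.04% and 5.75% of serine tRNA at bud, against 3.01% and 3.60% at shield (log2 0.84, SE 0.17, DESeq2 adjusted p = 2.96e-05), and this call too held without any 1 library. tRNA-Ser-AGA, which reads UCU and UCC, made up 50.1% and 53.4% at bud, against 58.8% and 61.7% at shield (log2 -0.22, SE 0.08, adjusted p = 0.0194). tRNA-Ser-UGA, named after its values were seen, made up 13.4% and 12.8% at bud, against 10.4% and 8.82% at shield, and its log2 change of 0.44 did not pass (adjusted p = 0.087), while it passed with the 4 libraries alone (adjusted p = 0.0035) and with unresolved groups left out (adjusted p = 0.039). The loss of tRNA-Ser-AGA no longer passed without the first bud library (adjusted p = 0.26) or the second shield library (adjusted p = 0.17).

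Arginine, glycine and glutamate gave the other 4 calls. tRNA-Arg-UCG gained, with 15.6% and 14.3% of arginine tRNA at bud, against 11.3% and 11.5% at shield (DESeq2 adjusted p = 0.00127). tRNA-Arg-UCU, which reads AGA, lost, with 17.8% and 14.8% at bud, against 21.2% and 20.4% at shield (adjusted p = 0.00953). An unresolved group of 11 transcripts held 86.3% and 86.3% of tRNA-Arg-UCU at bud and 90.2% and 89.6% at shield, and with such groups left out the log2 change of the family was -0.04 in place of -0.35.

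tRNA-Gly-CCC, which reads GGG, made up 7.95% and 10.3% of glycine tRNA at bud, against 6.91% and 6.96% at shield (log2 0.39, DESeq2 adjusted p = 0.0400). The gain rested on the second bud library, and without it the log2 change was 0.20 (adjusted p = 0.51). It also missed the threshold without the first or the second shield library (adjusted p = 0.138 and 0.166), and by edgeR (adjusted p = 0.091). tRNA-Glu-UUC, which reads GAA, made up 9.93% and 9.16% of glutamate tRNA at bud, against 14.1% and 12.1% at shield (log2 -0.45, adjusted p = 0.00932). Its loss did not pass without the second bud library or without the first shield library (adjusted p = 0.135 and 0.138). The gain of tRNA-Arg-UCG missed the threshold without the first bud library (adjusted p = 0.062), and the loss of tRNA-Arg-UCU without the second bud, the first shield or the second shield library (adjusted p = 0.23, 0.089 and 0.0502).

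Single transcripts spanned larger log2 changes than families, but the 2 levels differ in scale because size factors were estimated at each. With the same counts, tRNA-SeC-UCA stood at 1.88 as a transcript and at 1.51 as a family. Of the 607 detected, DESeq2 called 63 higher at bud, or 10.4%, and 1 lower, or 0.165%. The log2 changes of the 63 ran from 0.52 to 2.67 with a median of 1.58, beside a median of 0.00 over all detected transcripts, and they belonged to 32 anticodon families, 27 of which were not called as families. In 19 of the 32 a single transcript was called higher. All 63 had both bud libraries above both shield libraries in normalized counts, and 62 did so in percent of nuclear counts. The exception was tRNA-Ile-AAU-1, at 0.0675% and 0.0233% at bud and 0.0238% and 0.00936% at shield, singled out after its values were seen.

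The count of losses depended on the scaling. Relative to their nuclear counts the bud libraries had lower DESeq2 size factors than the shield libraries. Scaling by total nuclear counts moved the median log2 change by -0.44, to -0.43. On that scale 41 transcripts were higher and 45 lower. The 41 were all among the 63, and 38 of them were also called without each of the 4 libraries in turn on the main scale. In percent of nuclear counts 73 of the 607 had both bud libraries above both shield libraries, 307 had both below, and 227 overlapped. A called rise is thus a rise against the median transcript, and where the text gives a percent it can be read against the whole pool.

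The 63 transcripts together took 23.6% and 23.2% of nuclear counts at bud, against 13.8% and 13.8% at shield. The 41 that were higher on both scales took 13.1% and 12.5% at bud, against 4.94% and 5.12% at shield. The 543 detected transcripts that were not called took 48.5% and 50.4% at bud, against 59.6% and 57.2% at shield. These sums follow from how the lists were made and are given as sizes only. The abundance classes that follow were cut on means that include the bud and shield libraries, and are likewise sizes only. Detected transcripts of middle abundance, with a mean of 0.05 to 0.5% over the 12 libraries, numbered 96 and held 18.3% and 17.7% at bud, against 14.7% and 13.7% at shield. The 478 below that range held 5.15% and 5.23% at bud, against 6.55% and 5.79% at shield, and the 33 above it held 48.7% and 50.7% at bud, against 52.1% and 51.6% at shield.

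**Figure D2:**
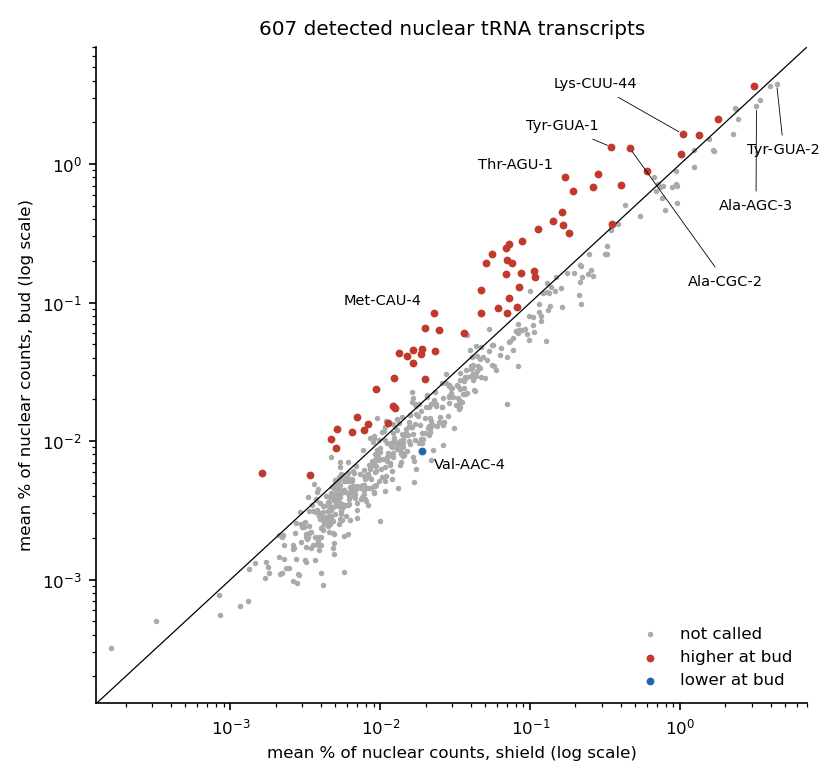
Mean percent of nuclear counts of each of the 607 detected transcripts at bud (vertical axis) and at shield (horizontal axis), both on log scales, with the line of equal percent. The 63 transcripts called higher lie above the line while most of the rest lie below it, and the 1 called lower is tRNA-Val-AAC-4.

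tRNA-Thr-AGU-1, which carries threonine and has 4 gene copies, had the largest rise. It held 0.856% and 0.746% of nuclear counts at bud, against 0.172% and 0.169% at shield. The log2 change was 2.67 (SE 0.25, DESeq2 adjusted p = 7.85e-25), and no earlier library exceeded 0.107%. Counting error was small beside these differences, since the 95% Wilson interval ran from 0.846 to 0.866% in the first bud library and from 0.168 to 0.175% in the first shield library, and such intervals cover counting error only.

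Tyrosine gave the single transcript with the largest gain of the pool among those called. tRNA-Tyr-GUA-1, with 7 gene copies, held 1.48% and 1.18% at bud, against 0.298% and 0.396% at shield, a mean gain of 0.98 percentage points (log2 2.36, SE 0.29, DESeq2 adjusted p = 2.87e-14). The minor isodecoder tRNA-Tyr-GUA-8 held 0.0526% and 0.0337% at bud, against 0.0132% and 0.0134% at shield (log2 2.13, adjusted p = 1.13e-11). In both the stages stood well apart, while the tyrosine family as a whole was at a log2 change of 0.16 (adjusted p = 0.42).

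Glutamine and valine each gave a pair of rises under a uridine wobble base. tRNA-Gln-UUG-6 held 0.241% and 0.211% at bud, against 0.0609% and 0.0504% at shield (log2 2.46, DESeq2 adjusted p = 1.88e-18), and tRNA-Gln-UUG-4 held 0.277% and 0.214% at bud, against 0.0616% and 0.0770% at shield (log2 2.25, adjusted p = 1.38e-12). tRNA-Val-UAC-4 held 0.205% and 0.178% at bud, against 0.0536% and 0.0476% at shield (log2 2.35, adjusted p = 1.36e-22), and tRNA-Val-UAC-10 held 0.279% and 0.248% at bud, against 0.0807% and 0.0644% at shield (log2 2.30, adjusted p = 1.88e-18). All 4 have 1 to 3 gene copies, and in each the stages were far apart. Neither family was called, with log2 changes of -0.05 for tRNA-Gln-UUG and -0.21 for tRNA-Val-UAC.

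Alanine contributed 2 of the 5 called transcripts with the largest gains of the pool. tRNA-Ala-CGC-2, with 2 gene copies, held 1.34% and 1.27% at bud, against 0.452% and 0.469% at shield (gain 0.84 percentage points, log2 1.94, DESeq2 adjusted p = 1.98e-19). tRNA-Ala-AGC-2, with 3 gene copies, held 0.736% and 0.971% at bud, against 0.283% and 0.280% at shield (gain 0.57 points, log2 2.04, adjusted p = 7.23e-12). The bud libraries of each lay well above its shield libraries. The remaining alanine family also held a called rise, with tRNA-Ala-UGC-4 at a log2 change of 1.67 (named after its values were seen).

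Further large rises came from tRNAs for aspartate, methionine, isoleucine, arginine and glycine. tRNA-Asp-GUC-1 held 0.676% and 0.600% at bud, against 0.193% and 0.194% at shield (log2 2.15, DESeq2 adjusted p = 3.37e-16). tRNA-Met-CAU-4, an elongator isodecoder of 1 gene copy, held 0.0846% and 0.0836% at bud, against 0.0238% and 0.0220% at shield (log2 2.31, adjusted p = 1.10e-28). tRNA-Ile-AAU-2 held 0.0690% and 0.0610% at bud, against 0.0194% and 0.0205% at shield (log2 2.14, adjusted p = 3.78e-20). In these 3 the libraries of a stage lay close together and the stages well apart.

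Of the 12 largest rises 2 were less certain. tRNA-Arg-UCG-3 held 0.310% and 0.244% at bud, against 0.0678% and 0.109% at shield (log2 2.07, SE 0.50, DESeq2 adjusted p = 9.62e-04), and the call was lost without the first shield library (log2 1.73, adjusted p = 0.076). tRNA-Gly-GCC-34 was rare, with 157 and 289 counts at bud and 89 and 74 counts at shield (log2 2.30, SE 0.63, adjusted p = 0.00659), and without either shield library the adjusted p was 0.085 and 0.082. It is also 1 of the 2 transcripts that passed detection only through a bud library, so that it had to differ in level between the stages. The stages did not overlap in either.

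The study's own marker transcripts were measured in the same way, and they had been chosen on these libraries, so their direction is not independent evidence. The study also measured tRNA-Ser-UGA-19, tRNA-Ala-AGC-3 and a threonine transcript by northern blot, on RNA matched to these samples. It names the blotted threonine transcript tRNA-Thr-UGU-7 in its text and tRNA-Thr-UGU-8 in its figure legend and probe list. tRNA-Ser-UGA-19 held 0.439% and 0.341% at bud, against 0.144% and 0.140% at shield (log2 1.89, DESeq2 adjusted p = 7.07e-23). tRNA-Thr-UGU-8 held 0.698% and 0.662% at bud, against 0.264% and 0.260% at shield (log2 1.81, adjusted p = 1.95e-21). Both stood well apart between stages.

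tRNA-Thr-UGU-7 was at 0.0526% and 0.0368% at bud, against 0.0209% and 0.0252% at shield (log2 1.38, DESeq2 adjusted p = 0.00788), a call lost without the first bud library (adjusted p = 0.23) or the first shield library (adjusted p = 0.21). tRNA-Ala-AGC-3 was at 2.46% and 2.76% at bud, against 3.14% and 3.30% at shield, and its change did not pass (adjusted p = 0.99). Its direction turned with the scaling, from log2 0.13 with size factors to -0.30 in percent of nuclear counts. tRNA-SeC-UCA-1, the single detected selenocysteine transcript, had a log2 change of 1.88 (adjusted p = 6.14e-09).

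The 1 transcript called lower was tRNA-Val-AAC-4, a rare valine isodecoder of 1 gene copy. It held 0.00833% and 0.00876% at bud, against 0.0202% and 0.0175% at shield (log2 -0.70, SE 0.20, DESeq2 adjusted p = 0.0128). The stages did not overlap, but the call was lost without any 1 of the 4 libraries, with adjusted p values of 0.34 and 0.16 without a bud library and 0.38 and 0.11 without a shield library.

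Among the called families, tRNA-Lys-CUU had many members called higher. Of its 38 detected transcripts 11 were called higher, or 28.9%, beside 10.4% over all detected transcripts. A positive log2 change was seen in 32, with a median of 0.54 beside 0.00. These changes are against the median transcript. Scaling by total nuclear counts moved the median over all detected transcripts by -0.44. tRNA-Lys-CUU-44, of 1 gene copy, made up most of the family and held 1.57% and 1.73% of nuclear counts at bud, against 1.01% and 1.06% at shield (gain 0.61 points, log2 1.11, DESeq2 adjusted p = 1.09e-05). Reads of near-identical transcripts may be assigned to one another, so the 11 cannot be taken as independent. Within the family 3 of the 38 lost share, or 7.89%, beside 14.5% over all 606 transcripts tested for share. DESeq2 called 0 of the 38 as gaining share, with 2 gaining at an unadjusted p under 0.05 and 1 by edgeR.

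In tRNA-Gly-GCC, which reads GGC and GGU, 7 of 28 detected transcripts were called higher, or 25.0%, beside the same 10.4%, yet the family stood at a log2 change of 0.04. The 7 include tRNA-Gly-GCC-34, which entered the list only through its level at bud. The 2 leading isodecoders of the family exchanged places. tRNA-Gly-GCC-35 made up 37.9% and 37.8% of the family at bud, against 26.7% and 23.8% at shield, and tRNA-Gly-GCC-12 made up 21.3% and 22.8% at bud, against 36.5% and 42.3% at shield. tRNA-Gly-GCC-35 led in both bud libraries and tRNA-Gly-GCC-12 in both shield libraries, and both shifts in share were called.

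The next question was how isodecoders changed within their own family, measured as the percent of the family's counts held by each transcript, which does not depend on the scaling between libraries. Of 606 detected transcripts in families of more than 1 entry, 37 gained share, or 6.11%, and 88 lost share, or 14.5%, with a median log2 change of -0.41. A gain by one member is by construction a loss by others. The 37 came from 25 families, 21 of which also held a loser. Of the 37 gains 35 were also called higher in abundance, and 26 were called without each library in turn, against 14 of the 88 losses.

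The losses rested more on the choice of test than the gains did. With edgeR there were 36 gains and 46 losses, with the 4 libraries alone 34 and 41, and with family totals from single transcripts alone 35 and 67. A block by replicate number gave more, with 38 gains and 118 losses. Leaving out 1 library gave 27 to 34 gains and 19 to 42 losses, the fewest of both without the first bud library and the most losses without the second shield library.

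Among the gains, the leading isodecoders of 2 serine families came to hold most of their family. tRNA-Ser-CGA-14 made up 79.0% and 75.6% of its family at bud, against 42.8% and 43.6% at shield (log2 0.84, SE 0.13, DESeq2 adjusted p = 2.77e-09). tRNA-Ser-UGA-19, which reads UCA, made up 70.0% and 63.6% at bud, against 24.9% and 36.1% at shield (log2 1.13, SE 0.30, adjusted p = 0.00261). The stages were far apart in both, although the gain of tRNA-Ser-UGA-19 did not pass without the first bud library (adjusted p = 0.097) or the first shield library (adjusted p = 0.10), nor with unresolved groups left out of the family (adjusted p = 0.062).

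tRNA-Ala-CGC-2 made up 41.5% and 42.9% of its family at bud, against 14.4% and 17.3% at shield (log2 1.41, DESeq2 adjusted p = 6.19e-10). Its partner tRNA-Ala-CGC-1, which has 21 gene copies, made up 55.3% and 50.9% at bud, against 81.3% and 71.6% at shield (log2 -0.53, adjusted p = 0.00225). The alanine family with wobble adenosine changed likewise. tRNA-Ala-AGC-2 stood at 23.0% and 26.0% at bud, against 8.27% and 7.80% at shield, and tRNA-Ala-AGC-3 at 77.0% and 74.0% at bud, against 91.7% and 92.2% at shield (log2 -0.29, adjusted p = 0.0286).

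tRNA-Thr-AGU-1 made up 35.3% and 28.4% of its family at bud, against 8.76% and 7.78% at shield (log2 1.95, DESeq2 adjusted p = 1.74e-11). tRNA-Thr-AGU-16 made up 24.5% and 29.0% at bud, against 41.8% and 43.1% at shield (log2 -0.67, adjusted p = 1.86e-05). The order of the pair at bud differed between the 2 bud libraries, while at shield tRNA-Thr-AGU-16 led in both.

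tRNA-Tyr-GUA-1, with 7 gene copies, stood at 25.4% and 23.6% of its family at bud, against 6.28% and 7.36% at shield. tRNA-Tyr-GUA-2, with 135 gene copies, stood at 69.6% and 71.6% at bud, against 87.5% and 86.0% at shield (log2 -0.30, DESeq2 adjusted p = 0.0224). In glutamine, tRNA-Gln-UUG-4 and tRNA-Gln-UUG-6 stood at 13.1% and 11.3%, and at 11.4% and 11.1%, at bud, against 2.46% and 4.16%, and 2.43% and 2.72%, at shield. The 48-copy tRNA-Gln-UUG-3 stood at 62.0% and 61.4% at bud, against 78.3% and 75.5% at shield (log2 -0.32, adjusted p = 0.0210).

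**Figure D3:**
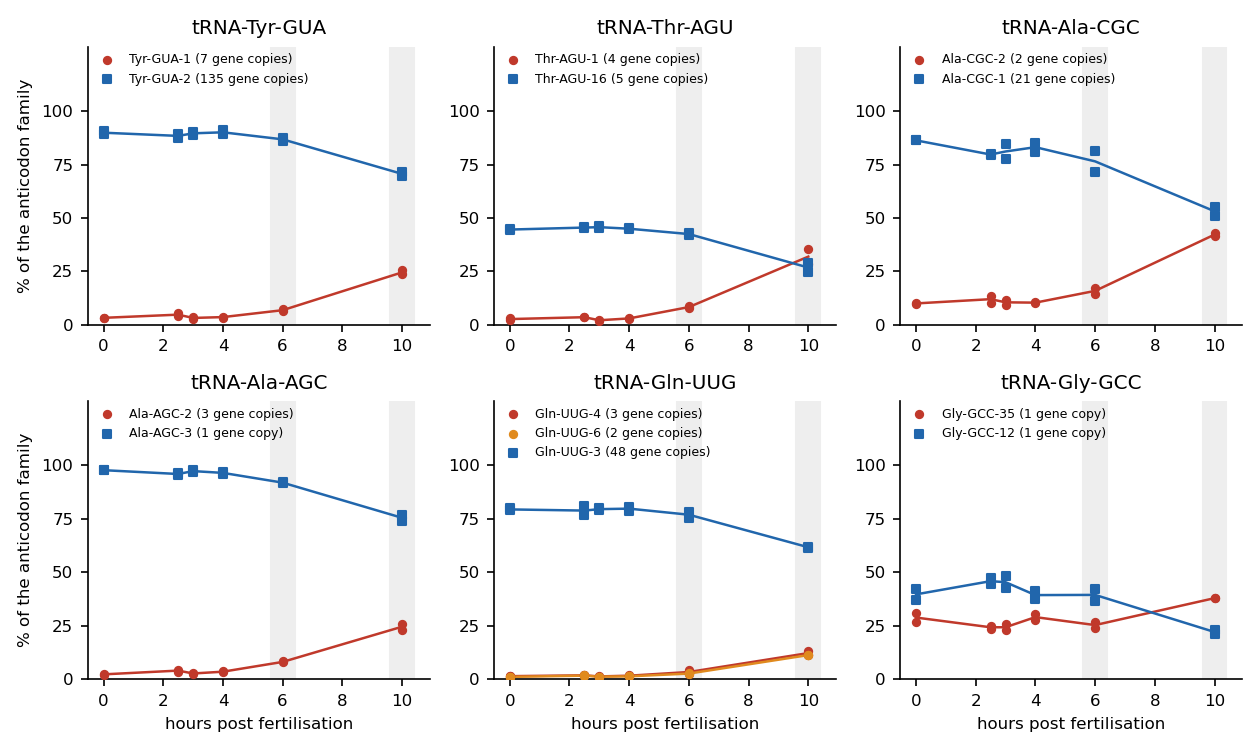
Percent of its anticodon family held by each of 2 or 3 isodecoders in 6 families, against hours post-fertilization, with a point for each of the 12 libraries and a line through the stage means. The shaded bands mark shield (6 hpf) and bud (10 hpf). tRNA-Tyr-GUA-1 stood at 25.4% and 23.6% at bud, against 6.28% and 7.36% at shield, as tRNA-Tyr-GUA-2 lost share.

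The other large gains were those of tRNA-Thr-UGU-8 (58.6% and 60.7% of its family at bud, against 38.7% and 34.3% at shield), tRNA-Gly-CCC-20 (60.5% and 62.7% at bud, against 35.2% and 35.8% at shield), tRNA-Arg-CCG-2 (50.1% and 40.9% at bud, against 17.0% and 22.8% at shield) and tRNA-Pro-CGG-1 (45.3% and 43.1% at bud, against 23.4% and 25.7% at shield). All 4 stood apart between stages, with DESeq2 adjusted p values of 0.00396, 3.89e-04, 0.00246 and 1.26e-05. That of tRNA-Pro-CGG-1 held without any 1 library. The gain of tRNA-Thr-UGU-8 was lost without the first bud, the second bud or the second shield library (adjusted p = 0.097, 0.13 and 0.12), that of tRNA-Gly-CCC-20 without the second bud library (adjusted p = 0.057), and that of tRNA-Arg-CCG-2 without the first bud or the first shield library (adjusted p = 0.12 and 0.090).

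Among the losses, tRNA-Gly-GCC-12 had a log2 change in share of -0.84 (DESeq2 adjusted p = 1.39e-05). tRNA-Arg-UCG-8, with 27 gene copies, stood at 13.9% and 19.0% of its family at bud, against 33.7% and 31.8% at shield (log2 -0.99, adjusted p = 1.20e-04). tRNA-Leu-UAG-99, which reads CUA, stood at 30.5% and 33.1% at bud, against 45.9% and 51.5% at shield (log2 -0.61, adjusted p = 0.00269). The stages did not overlap in any of the 3. The losses of tRNA-Gly-GCC-12, tRNA-Arg-UCG-8 and tRNA-Thr-AGU-16 held without any 1 library.

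The losses of tRNA-Ala-AGC-3, tRNA-Tyr-GUA-2 and tRNA-Gln-UUG-3 missed the threshold without any 1 of the 4 libraries, with DESeq2 adjusted p values from 0.20 to 0.44. Those of tRNA-Ala-CGC-1 and tRNA-Leu-UAG-99 missed it in 3 of the 4 such fits each, tRNA-Ala-CGC-1 passing only without the second shield library and tRNA-Leu-UAG-99 only without the first. None of the 8 largest losers was called in abundance with size factors, and for 5 of them the direction in abundance turned with the scaling, which were tRNA-Ala-AGC-3, tRNA-Tyr-GUA-2, tRNA-Gln-UUG-3 and tRNA-Thr-AGU-16 on total nuclear counts and tRNA-Ala-CGC-1, near 0 with size factors, with TMM factors. With size factors their log2 changes ran from -0.72 for tRNA-Leu-UAG-99 to 0.23 for tRNA-Tyr-GUA-2. On total nuclear counts tRNA-Gly-GCC-12 (log2 -0.87, DESeq2 adjusted p = 0.022) and tRNA-Leu-UAG-99 (log2 -1.16, adjusted p = 0.0038) were called lower. A loss of share is therefore not by itself a loss of the transcript, and whether abundance fell depended on the scaling. In percent of nuclear counts the 88 that lost share together held 15.2% and 15.3% at bud, against 20.4% and 19.9% at shield. The 88 were called on a loss of share in these same libraries, so this sum is given as a size only.

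The make-up of a whole family was compared as the distance between libraries, which is the summed share, in percentage points of the family, that would have to move from some entries to others to turn one library into the other. Over 45 families with more than 1 entry, the median distance between bud and shield libraries was 10.7 points, beside medians of 3.5 points between the 2 bud libraries and 5.02 points between the 2 shield libraries. In 33 families every bud to shield pair was further apart than both replicate pairs, and in 28 with unresolved groups left out. No test was made, because 2 against 2 libraries cannot give a small exact p.

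The families tRNA-Ser-UGA, at 36.4 points, and tRNA-Ser-CGA, at 34.2 points, led. The other serine families, tRNA-Ser-AGA and tRNA-Ser-GCU, were at 6.52 and 3.28 points. The shield libraries of tRNA-Ser-UGA were themselves 23.4 points apart, the widest replicate distance. Without unresolved groups the shield libraries of tRNA-Ser-UGA were 28.1 points apart, more than its closest bud to shield pair at 26.5 points. tRNA-Leu-UAG followed at 27.7 points and tRNA-Val-UAC at 27.2 points, each above its replicate distances. tRNA-Arg-CCU, at 0.385 points, was the least changed.

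**Figure D4:**
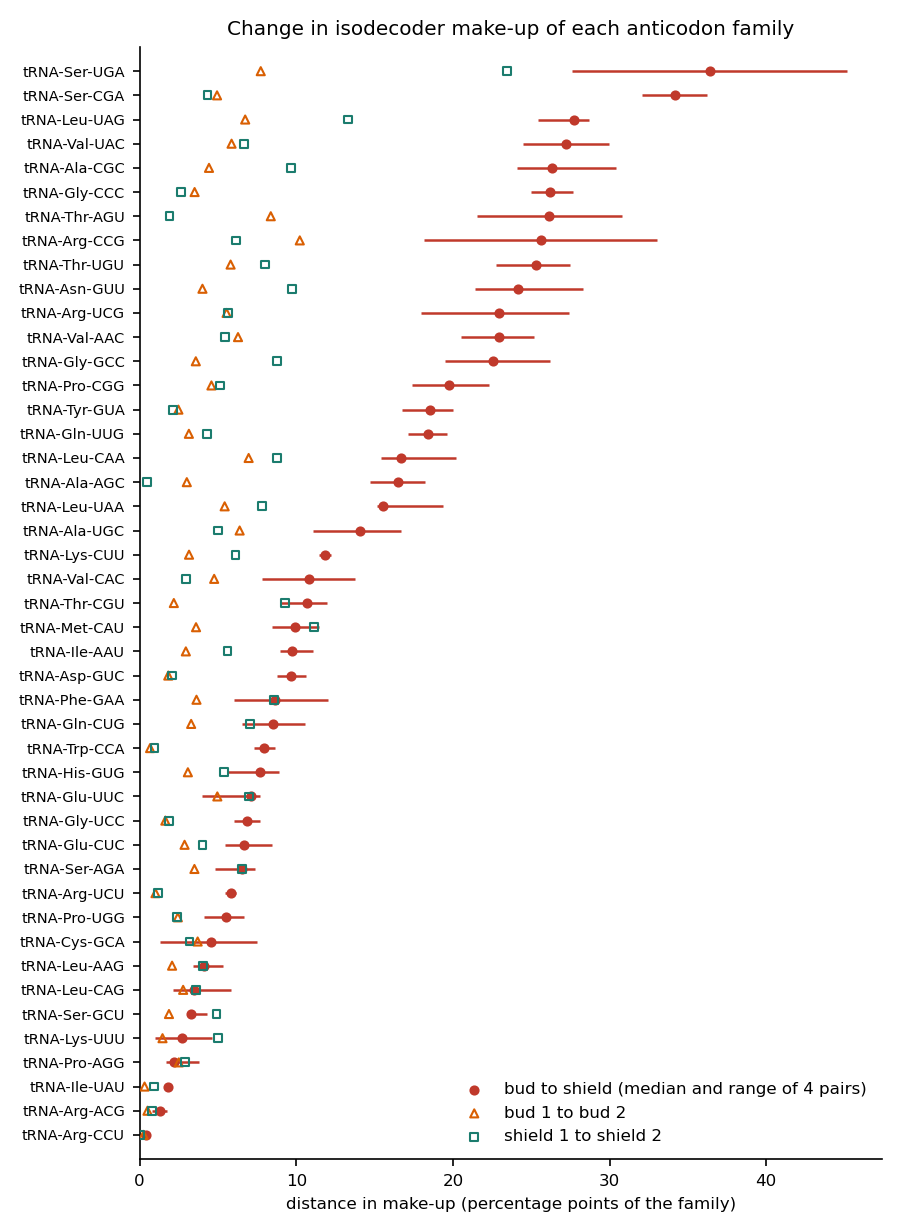
Distance in isodecoder make-up for each of 45 anticodon families, in percentage points of the family, with the median and range of the 4 bud to shield pairs, the bud pair (triangles) and the shield pair (squares). Unresolved groups are included. In 33 families the whole range lies above both replicate distances (28 without such groups), and tRNA-Ser-UGA and tRNA-Ser-CGA lie furthest out.

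The effective number of isodecoders, the inverse of the summed squared shares, showed that families moved both ways. It was higher in both bud than in both shield libraries in 14 families and lower in 25, with each unresolved group counted as 1 entry. Without such groups it was higher in 10 and lower in 25. tRNA-Ala-UGC, tRNA-Arg-CCG, tRNA-Arg-UCU and tRNA-Leu-UAA then turned from higher to lower. In tRNA-Ser-CGA it was 1.59 and 1.72 at bud and 4.41 and 4.26 at shield, so that a single transcript came to hold most of the family. In tRNA-Tyr-GUA it was 1.82 and 1.76 at bud and 1.30 and 1.34 at shield, so that the family became less dominated by one. The leading entry differed between stages, with the 2 libraries of each stage alike, in 3 families, which were tRNA-Gly-GCC, tRNA-Pro-CGG and tRNA-Asn-GUU. Among single transcripts alone it differed in 4, which were tRNA-Gly-GCC, tRNA-Pro-CGG, tRNA-Ala-UGC and tRNA-Arg-UCU. In tRNA-Asn-GUU, which reads AAC and AAU, 11 of 21 detected single transcripts lost share, beside 14.5% over all, and an unresolved group of 3 transcripts, headed by tRNA-Asn-GUU-82, stood at 55.7% and 57.0% of the family at bud, against 28.8% and 35.7% at shield (singled out after its values were seen). With unresolved groups left out, its bud and shield libraries were 10.6 to 12.1 points apart, less than the 15.5 points between the 2 shield libraries, and tRNA-Asn-GUU-176 led in all 4.

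By number of gene copies the percent called higher in abundance lay close to that over all detected transcripts. Of 367 detected transcripts with 1 gene copy 31 were called higher, or 8.45%, of 168 with 2 to 5 copies 22, or 13.1%, of 46 with 6 to 20 copies 7, or 15.2%, and of 26 with over 20 copies 3, or 11.5%. The medians of the log2 change were 0.02, -0.02, -0.07 and 0.13 in the same order. The 3 with over 20 copies were tRNA-Glu-CUC-1, tRNA-Gln-CUG-4 and tRNA-Ile-AAU-3, with log2 changes of 0.67, 0.70 and 0.63 (named after their values were seen), and on total nuclear counts none of the 3 was called. In share of the family, 9 of the 26 with over 20 copies lost, or 34.6%, beside 14.5% over all 606. The median log2 change in share of these 26 was -0.24, a smaller loss than the -0.41 over all. DESeq2 called 0 of the 26 as gaining, with 0 gaining at an unadjusted p under 0.05 and 1 by edgeR. The 63 had a median of 2 gene copies, beside 1 over all detected transcripts.

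The isodecoder number was more uneven. Of 95 detected transcripts numbered 1 to 4 in their family 29 were called higher, or 30.5%, against 16 of 208 numbered 5 to 20, or 7.69%, and 18 of 304 numbered above 20, or 5.92%. The median log2 changes were 0.32, -0.08 and 0.00. In share of the family, 22 of those numbered 1 to 4 gained, or 23.4%, and 5 of the 304, or 1.64%, beside 6.11% over all 606. Percents of share leave out tRNA-SeC-UCA-1, whose family has 1 entry. The 15 losses among those numbered 1 to 4 and the 40 among the 304, or 16.0% and 13.2%, lay near the 14.5% over all. The 18 included 10 of tRNA-Lys-CUU, without which it was 8 of 273. The median isodecoder number was 6 for the 63 and 21 over all detected transcripts. These classes were set after the values were seen and were not tested. They also differ in abundance per transcript. The 95 together held 41.6% of nuclear counts at bud and 38.7% at shield, and the 304 held 18.6% and 19.7%. The effect of abundance on the calls was not tested.

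**Figure D5:**
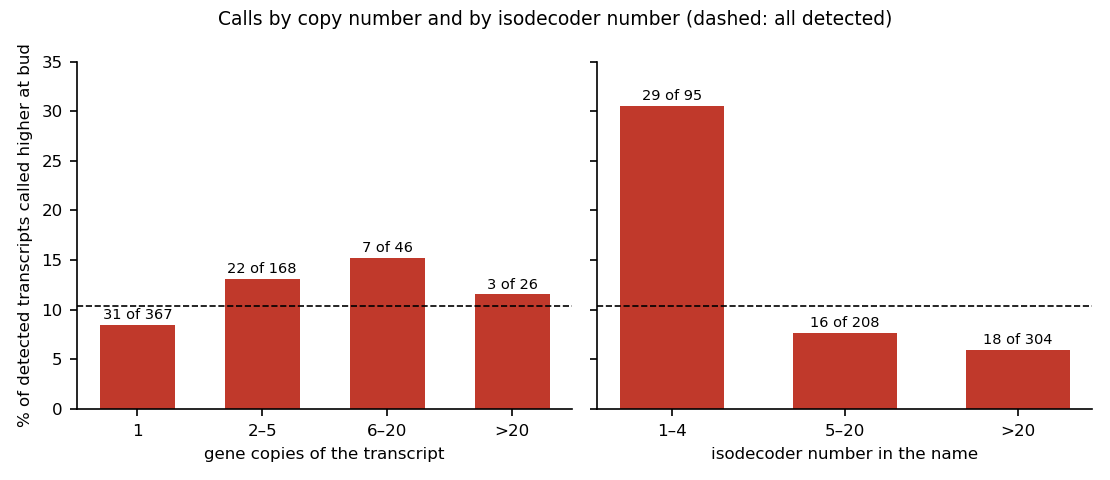
Percent of detected transcripts called higher at bud, by the number of gene copies of the transcript (left) and by the isodecoder number in its name (right), with the counts above each bar and the 10.4% over all detected transcripts as a dashed line. Transcripts numbered 1 to 4 stand at 30.5%, and the copy classes lie between 8.45% and 15.2%. The number classes differ in abundance per transcript.

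The earlier stages placed the contrast in time. Of the 63 transcripts called higher, 54 had both bud libraries above all 8 libraries from egg to sphere in percent of nuclear counts, or 85.7%, beside 11.4% of all detected transcripts. The 63 were called on the same bud libraries, so this is a description. At shield 33 of the 63 already had both libraries above that range, or 52.4%, beside 10.0% of all detected transcripts, and 15 had both within it. Together the 63 held 10.9 to 12.5% of nuclear counts from egg to sphere, against which the 13.8% of both shield libraries and the 23.6% and 23.2% of the bud libraries can be set.

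Of the 88 transcripts that lost share, 69 had both bud libraries below all 8 earlier libraries in percent of nuclear counts, or 78.4%, beside 33.4% of all detected transcripts. They too were called on the same bud libraries, so this is a description. They held 15.2% and 15.3% of nuclear counts together at bud, against 20.4% and 19.9% at shield, with 21.5 to 23.2% from egg to sphere. The shield libraries are shared between the 2 views, so the position of shield against the earlier stages is not separate evidence for the change to bud.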

How the data were processed

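Small RNA from whole embryos was sequenced as tRNA libraries. The authors trimmed reads with cutadapt 3.5 and deposited raw counts per tRNA transcript from mim-tRNAseq, which aligns with GSNAP to GRCz11 genomic tRNA database sequences and assigns reads among near-identical transcripts, so a single transcript is less certain than its family. Here counts were summed by anticodon and amino acid, and bud was compared with shield by the Wald test of DESeq2 1.42.0 (R 4.3.3) in one fit by stage over 12 libraries, with Benjamini-Hochberg adjusted p at most 0.05. Leaving the other stages in the fit lets them share one estimate of the spread. Shares used the family or amino acid total, plus a small constant, as normalization factors. DESeq2 filtered low counts at its default level of 0.1. A level of 0.05 had been tried first, and the default was kept once its counts of calls had been seen to equal an earlier analysis of these data. Transcript tests ran on all single nuclear transcripts, and the 607 detected were counted.

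Alternatives were edgeR 4.0.16, TMM and total-count scaling, the 4 libraries alone, other detection levels, resolved transcripts alone, a replicate block and each library left out. Named transcripts were the 12 largest called rises and all falls, the 5 largest called gains and losses of the pool, and the 8 largest called gains and losses of share, in each case with stages that did not overlap, plus 4 transcripts named in the study and selenocysteine tRNA. Members and lists were chosen with earlier results of these data known. Tests were tried on simulated counts, drawn independently for each library from the means and spread of these data. The simulated counts held no reads assigned to the wrong transcript and no link between same-numbered libraries, so they do not address either.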

Additional observations from a re-analysis of the deposited data

How the results depend on the processing

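With 2 libraries a stage, calls near the threshold depended on single libraries, and low counts limited rare transcripts. For transcripts, 63 higher and 1 lower became 52 and 0 with edgeR (170 of all nuclear transcripts at an unadjusted p under 0.05), 63 and 2 with TMM factors, 41 and 45 with total nuclear counts, and 45 to 53 calls without 1 library. Filtering at 0.05, which was tried first and became an alternative once the counts of both levels had been seen, gave 64 and 2 and changed no other count. The 4 libraries alone called 15 families (8 higher, 7 lower) in place of 5 and 3 amino acids in place of 1. For shares within a family, 125 calls became 82 with edgeR, 75 with the 4 libraries alone and 64 with detection at 0.05%, the last of which counts fewer transcripts. Leaving out 1 library gave 46 to 71 share calls, 2 to 6 families (2 without the first shield library) and 5 to 7 isoacceptor calls (5 without the second bud or the second shield library). For 6 of the 8 named transcripts that lost share, the abundance change, which was not called, reversed. With total nuclear counts, and alike in percent of nuclear counts, the log2 change became -0.30 for tRNA-Ala-AGC-3, -0.21 for tRNA-Tyr-GUA-2, -0.38 for tRNA-Thr-AGU-16 and -0.44 for tRNA-Gln-UUG-3, and that of tRNA-Ala-CGC-1 became 0.012 with TMM factors. Without 1 library it ranged from -0.15 to 0.15 for tRNA-Ala-CGC-1, -0.32 to 0.12 for tRNA-Arg-UCG-8, -0.13 to 0.26 for tRNA-Thr-AGU-16 and -0.17 to 0.21 for tRNA-Gln-UUG-3. The cause of these changes was not tested. Of 622 alternative values of 61 named features, 509 kept their direction and side of the threshold (or moved by less than the replicate spread), 70 lost the call, 2 gained one, 25 moved and 16 reversed.

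The labels do not say that replicate numbers pair the samples. Deviations of same-numbered libraries correlated at -0.17 to 0.86 over 15 pairs of stages for transcripts (13 over 0.1, and 0.41 for bud and shield) and at -0.22 to 0.88 for families (8 over 0.1). Not every pair was over 0.1, so the samples were not treated as paired. This rule does not show that same-numbered bud and shield libraries are unrelated. With a replicate block there were 69 transcript calls (66 higher, 3 lower), 6 families (tRNA-Thr-AGU was gained, log2 0.36, DESeq2 adjusted p = 0.0013), 1 amino acid, 156 share calls and 7 isoacceptor calls, and among the named features only the gain of tRNA-Gly-CCC lost its call (DESeq2 adjusted p = 0.053).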
